A study of Mus musculus with 18 samples.

Results

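The comparison described here sets 3 kidney libraries from mice given STZ together with AOS (STZ+AOS) against 3 from mice given AOS alone (AOS). These are 6 of the 18 libraries of the series, and they were picked by their treatment label, not by any measured value. Every mouse was of the ICR strain and 10 weeks old, and both groups received AOS at 10 mg/kg, so the labelled difference between them is STZ. STZ usually stands for streptozotocin, which is taken up by insulin-producing beta cells, is used to make rodents diabetic and can also act on the kidney directly. The labels do not spell out AOS, and the dose of STZ, the sex of the mice, their blood glucose and the interval between treatment and sampling are not stated in the labels. The series asks how transfer of gut microbiota (FMT) acts on a kidney damaged by STZ; it holds 6 groups of 3, the others being untreated controls, STZ alone, and STZ with microbiota transferred from AOS-treated or from control donors. Whether the 3 libraries of a group came from 3 mice is not stated, so p-values measure the spread between these libraries, which may be technical.

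Most of the kidney cortex is proximal tubule, whose cells reabsorb glucose, phosphate, amino acids and filtered protein and secrete organic anions and cations, and whose gene expression in the mouse depends strongly on androgens. Damaged tubule cells are known to lose such transport genes and to switch on injury genes, cell-cycle brakes downstream of the DNA-damage regulator p53, and stress-responsive genes such as metallothioneins. Insulin lack and fasting both free fatty acids from fat stores, which activate the nuclear receptor PPAR-alpha and with it genes of fatty acid oxidation.

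Values are FPKM, a measure of transcript abundance corrected for transcript length and library total, and the number of reads behind each library is unknown. In the AOS libraries 20.3 to 21.6% of all summed FPKM came from one transcript, Kap, whose androgen-regulated product is made in the proximal tubule, against 1.02, 5.60 and 6.73% in STZ+AOS 1, 2 and 3. FPKM are shares of a whole, so a fall of the most abundant transcript raises the values of the others by construction. The median log2 difference of all 12163 tested genes was 0.29, and it was -0.03 when the libraries were rescaled by the median ratio of their genes (median-of-ratios rescaling) or brought to a common distribution (quantile normalization). Rescaled to their total without Kap, the libraries still gave a median of 0.23, with 3551 genes called higher (29.3%) and 965 lower (7.95%) of 12133, and no gene named here lost its call. Differences are given on the log2(FPKM + 1) scale, which understates the change of low genes, and each is to be read against that 0.29. The STZ+AOS libraries also held transcripts of the adrenal gland, a separate organ that sits on the kidney. The 16 adrenal cortex markers summed to 3122, 235 and 3850 FPKM in STZ+AOS 1, 2 and 3 and to between 81.8 and 83.5 FPKM in the AOS libraries. STZ+AOS 2 is therefore the library of its group with the fewest adrenal transcripts, and where a result turns on it the fit of STZ+AOS 2 alone against AOS is given, in which that library is assumed to vary like the AOS libraries. Control 3 and STZ 1, which enter only the last comparison, lay on the side opposite to their labels for the leading genes. The part that adrenal tissue plays in the other results was not tested beyond the fits given here.

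Between STZ+AOS and AOS, 5216 of the 12163 genes (42.9%) passed limma's test at a Benjamini-Hochberg adjusted p of 0.05. Of these, 4450 genes (36.6% of those tested) were higher and 766 (6.30%) lower in STZ+AOS. The split depended on the scale. After median-of-ratios rescaling 1476 genes were called higher (12.2%) and 2301 lower (19.0%), and on quantile-normalized values 1028 were higher (8.45%) and 1486 lower (12.2%). Under all 3 scalings 797 genes were called higher (6.55%) and 701 lower (5.76%), and no called gene was called in the other direction after median-of-ratios rescaling. When each of the 6 libraries was left out in turn, 1902 genes (15.6%) were called every time, 1602 higher (13.2%) and 300 lower (2.47%); 2724, 2141 and 2213 genes were called without AOS 1, AOS 2 and AOS 3. STZ+AOS 2 alone gave 4042 genes called higher (33.2%) and 723 lower (5.94%). In 7305 genes (60.1%) the 3 values of one group all lay above the 3 of the other, and in 1535 higher and 206 lower called genes the group means differed by more than 2-fold. The counts for each gene list below are to be read against these shares of all genes. Where fewer members were tested than listed, the rest did not reach 1 FPKM in at least 3 of the 6 libraries or were not matched to a single entry. A member that reached it in STZ+AOS alone could only be called higher, so such counts carry that choice. Besides the lists where this is given below, 1 such member was tested in each of 8 lists. They are the fasting, glucocorticoid, NRF2, podocyte, fibroblast, macrophage, complement and chaperone lists.

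**Figure D1:**
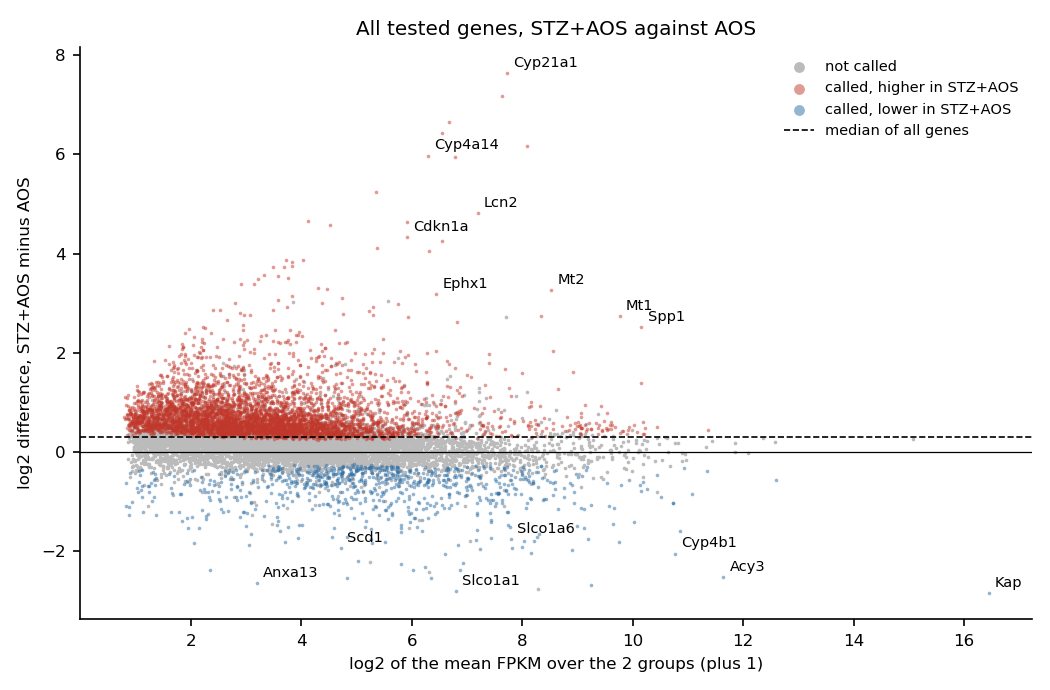
Log2 difference between STZ+AOS and AOS (vertical axis) against log2 of the mean FPKM plus 1 (horizontal axis) for the 12163 tested genes; red points are called higher, blue points called lower and grey points not called, and the dashed line is the median of all genes. The median lies at 0.29, and Kap stands at the far right at -2.85.

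Among the deepest losses in STZ+AOS were proximal tubule genes that androgens are known to raise in the mouse kidney. Of 12 tested genes on that list 9 fell and 0 rose, with a median log2 difference of -1.89 against 0.29 for all genes. The same 9-to-0 count was found after median-of-ratios rescaling, the count was 8 to 0 after quantile normalization, and all 12 were called lower in STZ+AOS 2 alone. Kap (chr6:133849851-133853762, mm10) measured 144521, 155154 and 153075 FPKM in AOS 1, 2 and 3 and 6174, 35781 and 41198 FPKM in STZ+AOS 1, 2 and 3. Its groups stood far apart, with STZ+AOS 1 the lowest library. The AOS mean was 5.44 times the STZ+AOS mean (log2 difference -2.85 ± 0.68 SE, limma adjusted p = 0.0182). Kap lost its call without AOS 1, AOS 2 or AOS 3, with an adjusted p of at most 0.0631, and after quantile normalization (-1.65, adjusted p = 0.16), which ties the most abundant transcript of each library to a common value.

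Cyp4b1, a cytochrome P450 of fatty acid and xenobiotic oxidation, measured 2807, 2837 and 2645 FPKM in AOS and 458, 635 and 1002 FPKM in STZ+AOS (-2.06 ± 0.26 SE, adjusted p = 0.00466). Gusb, the lysosomal beta-glucuronidase that is a classic androgen-inducible kidney gene, measured 35.5, 31.7 and 30.7 FPKM in AOS and 14.9, 11.96 and 12.9 FPKM in STZ+AOS (-1.24 ± 0.11 SE, adjusted p = 0.00248). Both genes were low in all 3 STZ+AOS libraries, with no overlap between the groups. Slco1a1, an organic anion uptake carrier, fell from 178, 179 and 208 FPKM to 8.62, 40.5 and 47.9 FPKM (-2.81 ± 0.58 SE, adjusted p = 0.0121). Odc1, the ornithine decarboxylase that opens polyamine synthesis, and Slc7a13, an amino acid carrier of the late proximal tubule, fell as well, with log2 differences of -1.76 and -1.67. The call of Slc7a13 was lost without AOS 1, AOS 2 or AOS 3, with an adjusted p of at most 0.0658. Cyp7b1, Acsm3 and Cyp2e1 were the members that did not pass, with adjusted p of 0.162, 0.0547 and 0.317. Cyp2e1, a P450 of small toxic molecules, read 332 FPKM in STZ+AOS 1 and 2267 FPKM in STZ+AOS 3, to either side of the AOS range of 1558 to 1593 FPKM.

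A short list of 4 genes that are known to be higher in female than in male mouse kidneys went the other way. All 4 rose, and all 4 were also called higher after median-of-ratios rescaling, but only 1, Cyp4a14, after quantile normalization. Cyp4a14 is also among the fasting and PPAR-alpha genes given below. Of the 4, 1, Slc7a12, was under 1 FPKM in every AOS library and could only be called higher. Slc7a12, an amino acid carrier, measured 0.780, 0.270 and 0.470 FPKM in AOS and 6.96, 9.16 and 1.38 FPKM in STZ+AOS (1.95 log2, adjusted p = 0.024), and Prlr, the prolactin receptor, 0.820, 0.690 and 1.32 against 7.65, 2.06 and 3.98 FPKM (1.40, adjusted p = 0.0224). Slc7a12 lost its call without any one library but STZ+AOS 3 (adjusted p up to 0.0811), and Prlr lost it without AOS 1, AOS 2 or AOS 3 (up to 0.0764).

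Proximal tubule markers as a group were lower. Of 24 tested, 12 fell and 0 rose (median log2 difference -0.65), and their summed level went from 18806 to 19004 FPKM in AOS to 6238, 10402 and 8829 FPKM in STZ+AOS. In whole kidney, fewer cells of a type and less RNA per cell cannot be told apart. After median-of-ratios rescaling 16 fell, and 11 did so on quantile-normalized values. Acy3, the aminoacylase that deacetylates mercapturates, fell from 5737, 4455 and 5818 FPKM to 417, 1573 and 1164 FPKM (-2.53 ± 0.46 SE, adjusted p = 0.00864). Lrp2, the endocytic receptor megalin, fell from 147, 145 and 152 to 79.0, 91.7 and 76.3 FPKM (-0.84 ± 0.10 SE, adjusted p = 0.00417). In both, the highest STZ+AOS library was STZ+AOS 2 and it stayed below the lowest AOS library.

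Among the genes with the largest or cleanest falls were further enzymes and membrane proteins of the tubule. Anxa13, an epithelial annexin, was the gene with the widest gap between the groups among those that fell, at 15.8, 15.3 and 13.3 FPKM in AOS against 0.830, 1.50 and 2.41 FPKM in STZ+AOS (-2.65 ± 0.22 SE, adjusted p = 0.00246). Ace, the angiotensin-converting enzyme of the brush border, fell from 124, 102 and 94.1 FPKM to 9.14, 28.9 and 27.4 FPKM (-2.38 ± 0.40 SE, adjusted p = 0.00745). Cckar, the cholecystokinin A receptor, fell from 48.6, 45.5 and 44.3 to 2.79, 16.4 and 6.94 FPKM (-2.55, adjusted p = 0.0105). STZ+AOS 1 was the lowest library for each of the 3. Lipo3 and Ces1g, a lipase and a carboxylesterase, fell by 2.21 and 2.39 on the log2 scale, Aspdh, an aspartate dehydrogenase, by 2.32, and Mdk, the growth factor midkine, by 2.39. All these calls held without each library in turn and after both rescalings. In absolute level the largest falls after Kap and Acy3 included Fxyd2, the gamma subunit of the sodium pump, from 7251, 7550.1 and 7254 FPKM to 4635, 5545 and 4636 FPKM (-0.58 ± 0.11 SE, adjusted p = 0.00944). They also included Miox, which opens inositol breakdown (-1.60, adjusted p = 0.012), and Ass1, argininosuccinate synthase, through which the kidney makes arginine (-1.03 ± 0.10 SE, adjusted p = 0.00287).

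**Figure D2:**
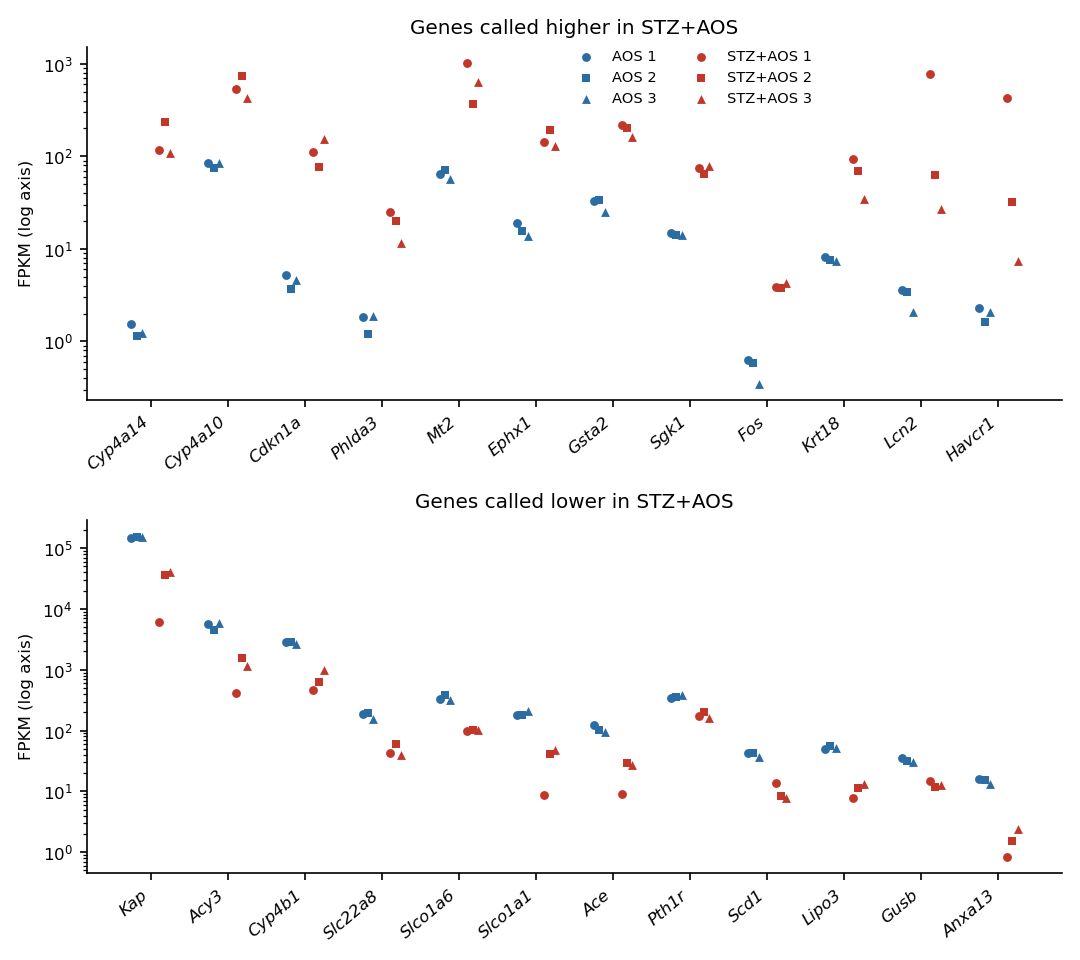
FPKM in each library on a log axis for 12 genes called higher (top) and 12 called lower (bottom) in STZ+AOS; blue is AOS, red is STZ+AOS, and circle, square and triangle are libraries 1, 2 and 3. In none of the 24 genes do the groups overlap, and the injury genes Lcn2 and Havcr1 have the widest spread within STZ+AOS.

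Carriers that move organic anions and cations, the route by which the kidney secretes drugs, toxins and uric acid, were lower. Of 17 listed and 16 tested, 11 fell and 2 rose (median -0.95), with 12 lower and 1 higher after median-of-ratios rescaling and 9 lower and 1 higher after quantile normalization. The basolateral anion exchanger Slc22a6 (OAT1, chr19:8618039-8628299) measured 532, 552 and 570.2 FPKM in AOS and 222, 316 and 218 FPKM in STZ+AOS (-1.15 ± 0.16 SE, adjusted p = 0.00526). Its neighbour in function, Slc22a8 (OAT3), measured 184, 193 and 156 against 42.5, 60.7 and 40.1 FPKM (-1.89 ± 0.18 SE, adjusted p = 0.00269). For both, STZ+AOS 2 was the highest of its group and lay well under every AOS library. The cation carrier Slc22a2 (OCT2) fell from 248, 239.6 and 251 to 70.7, 129 and 89.9 FPKM (-1.38 ± 0.21 SE), its apical exit partner Slc47a1 (MATE1) from 366, 369.8 and 366 to 184, 219 and 175 FPKM (-0.94 ± 0.11 SE), and the urate exchanger Slc22a12 (URAT1) from 978, 985 and 1111 to 454, 594 and 412 FPKM (-1.09 ± 0.15 SE). Slco1a6, an anion carrier of the brush border, was the most even of the list, at 328, 387 and 315 FPKM against 96.7, 102 and 101 FPKM (-1.77 ± 0.11 SE, adjusted p = 0.000986). Abcc4, an efflux pump, was one of the 2 that rose, from 3.42, 3.28 and 2.87 FPKM to 12.8, 11.0 and 11.7 FPKM (1.62 ± 0.11 SE, adjusted p = 0.00141), the other being the efflux pump Abcc2 (0.42), which did not pass after either rescaling or without AOS 2 or AOS 3 (adjusted p up to 0.0679 in the latter). The calls of these 7 carriers held without each library in turn.

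Phosphate handling followed the same direction in its main carrier. Slc34a1, the brush border sodium-phosphate cotransporter, fell from 2719, 2633 and 2908 FPKM to 1288, 1898 and 1458 FPKM (-0.85 ± 0.15 SE, adjusted p = 0.00874), but did not pass after quantile normalization (-0.66, adjusted p = 0.0783). Pth1r, the receptor for parathyroid hormone, which lowers phosphate uptake, fell from 346, 351 and 392 FPKM to 175, 199 and 161 FPKM (-1.03 ± 0.11 SE, adjusted p = 0.00354), a call that held under every scaling and leave-out. Both genes had no overlap between the groups. Of the 11 genes of phosphate, vitamin D and klotho 6 fell and 3 rose (median -0.37), and after median-of-ratios rescaling 7 fell and 0 rose. Kl, the anti-ageing co-receptor klotho, measured 159, 152 and 178 FPKM against 112, 139 and 102 FPKM (-0.47 ± 0.14 SE, adjusted p = 0.0322), and its call was lost without any of 5 libraries, STZ+AOS 2 being the exception (adjusted p up to 0.115).

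Calls among glucose carriers and enzymes of glucose synthesis lay near or below the shares of all genes. Those shares were 36.6% higher and 6.30% lower as deposited, and 12.2% and 19.0% after median-of-ratios rescaling. No result particular to these lists is read from the counts. Slc5a2 (SGLT2), which reclaims most filtered glucose, measured 219, 228 and 244 FPKM in AOS and 184, 202 and 186 FPKM in STZ+AOS (-0.27 ± 0.09 SE, adjusted p = 0.0537); it did not pass, although all 3 STZ+AOS libraries were below all 3 AOS libraries, and it was called lower after median-of-ratios rescaling (-0.63, adjusted p = 0.00849). Of 7 glucose carriers 2 rose and 0 fell, and after median-of-ratios rescaling 0 rose and 1 fell. Of 10 gluconeogenesis genes 2 rose and 0 fell, against 0 and 2 after rescaling. Pck1, the enzyme that commits carbon to glucose synthesis and that acidosis and fasting raise, spread from 193 FPKM in STZ+AOS 1 through 888 in STZ+AOS 2 to 2572 in STZ+AOS 3, on both sides of the AOS range of 514 to 664 FPKM (adjusted p = 0.707).

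Genes that p53 is known to activate rose together. Of 20 tested, 17 rose and 0 fell (median 1.38), 15 rose and 1, Perp, fell after median-of-ratios rescaling, 15 rose and 0 fell after quantile normalization, and 18 rose in STZ+AOS 2 alone. Cdkn1a (chr17:29090976-29100727), which encodes the cell-cycle brake p21, measured 5.20, 3.73 and 4.62 FPKM in AOS and 112, 76.0 and 155 FPKM in STZ+AOS, a ratio of means of 25.4 (4.34 ± 0.25 SE, adjusted p = 0.000933). The lowest STZ+AOS library was STZ+AOS 2, far above every AOS library. Phlda3, an inhibitor of Akt, measured 1.83, 1.20 and 1.86 against 24.9, 20.1 and 11.6 FPKM (2.87 ± 0.27 SE, adjusted p = 0.00271). Eda2r, a death-domain receptor, measured 0.0900, 0.0600 and 0.15 FPKM in AOS and 5.62, 4.05 and 2.30 FPKM in STZ+AOS (2.13, adjusted p = 0.00377). It is the 1 tested member under 1 FPKM in every AOS library. The filter thus fixed its direction and its lack of overlap, and it could only be called higher. Mdm2, the ubiquitin ligase that feeds back on p53 itself, measured 12.5, 11.3 and 14.7 against 31.3, 37.1 and 35.6 FPKM (1.37 ± 0.12 SE, adjusted p = 0.00248), and Ccng1, cyclin G1, 70.5, 59.4 and 62.8 against 179, 230.1 and 162 FPKM (1.54 ± 0.15 SE, adjusted p = 0.00284). Gdf15, a stress cytokine, was the most uneven, at 85.7, 37.2 and 18.3 FPKM in STZ+AOS against 3.95 to 5.78 FPKM in AOS (2.78 ± 0.50 SE, adjusted p = 0.00847). In all 6 genes the groups did not overlap, and their calls held without each library and under each scaling. Of the 17 rises, 15 were called in every leave-out fit. The members that missed the threshold were Sesn2, Ei24 and Perp, with log2 differences of 0.99, 0.07 and -0.23.

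Tubular injury genes were higher in all STZ+AOS libraries but to very different degrees. Of 23 listed 20 were tested, 3 of them at under 1 FPKM in every AOS library, and 18 rose and 0 fell (median 2.03), while 11 rose once rescaled by median ratios and 9 on quantile-normalized values, and 8 of the 18 kept their call in every leave-out fit. STZ+AOS 1 was the highest library for 15 of the 20. Havcr1, the injury receptor KIM-1, measured 2.27, 1.63 and 2.06 FPKM in AOS and 423, 32.0 and 7.45 FPKM in STZ+AOS. It was above the AOS range in all 3, but STZ+AOS 1 stood far above the other two. Its log2 difference was 4.04 ± 1.27 SE (adjusted p = 0.0411), it did not pass after median-of-ratios rescaling (adjusted p = 0.0601), and it lost its call without AOS 1, AOS 2, AOS 3 or STZ+AOS 2 (up to 0.112). Lcn2, the iron-binding lipocalin NGAL, showed the same order, with 3.57, 3.41 and 2.06 FPKM in AOS and 772, 62.8 and 27.2 FPKM in STZ+AOS (4.82 ± 1.11 SE, adjusted p = 0.0166; up to 0.0588 without AOS 1, AOS 2 or AOS 3). Keratins of simple epithelium were more even. Krt18 measured 8.09, 7.54 and 7.35 FPKM in AOS against 93.0, 68.6 and 35.0 FPKM (2.83 ± 0.32 SE, adjusted p = 0.00362), and Krt19 measured 1.45, 3.21 and 0.900 against 29.7, 30.4 and 13.3 FPKM (3.15 ± 0.39 SE, adjusted p = 0.00435). Spp1, the secreted phosphoprotein osteopontin, went from 325, 285 and 277 FPKM to 3564, 1503 and 886 FPKM (2.51 ± 0.46 SE, adjusted p = 0.00877). S100a6, a calcium-binding protein, was highest in STZ+AOS 2, at 115, 141 and 61.2 FPKM against 10.2 to 18.7 FPKM in AOS (2.72 ± 0.34 SE, adjusted p = 0.00434). The calls of Krt18, Krt19, Spp1 and S100a6 held without each library and under each scaling.

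Some large rises lay outside the fixed lists. Ugt1a2, a glucuronosyltransferase, measured 0.360, 0.0700 and 0.780 FPKM in AOS and 163, 61.5 and 12.9 FPKM in STZ+AOS (5.25 ± 0.82 SE, adjusted p = 0.00621). Ugt1a2 was under 1 FPKM in every AOS library, so the filter fixed its direction and it could only be called higher. Its reads may be split with other Ugt1a genes, which share exons, so its level is uncertain. Sprr1a, a cornified-envelope protein, measured 3.49, 8.08 and 0.750 against 95.8, 186 and 60.1 FPKM (4.64 ± 0.64 SE, adjusted p = 0.00538), and Ly6d, a surface protein of epithelial and lymphoid cells, 1.43, 0.680 and 0.260 against 14.3, 40.4 and 21.9 FPKM (3.82 ± 0.39 SE, adjusted p = 0.00297). Sprr1a and Ly6d were highest in STZ+AOS 2.

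Genes of the fasting and PPAR-alpha response were among the cleanest rises. Of 14 listed and 10 tested, 8 rose and 2 fell (median 2.10), with 8 and 2 after median-of-ratios rescaling, 7 and 1 on quantile-normalized values, and 8 and 2 in STZ+AOS 2 alone. Cyp4a14 (chr4:115486200-115496142), a fatty acid omega-hydroxylase, measured 1.54, 1.15 and 1.23 FPKM in AOS and 116, 234 and 109 FPKM in STZ+AOS, a ratio of means of 117 (5.97 ± 0.28 SE, adjusted p = 0.000741). Its relative Cyp4a10 measured 84.8, 74.4 and 85.7 against 534, 729.8 and 425 FPKM (2.74 ± 0.20 SE, adjusted p = 0.0019). Genes of the Cyp4a cluster are close in sequence, and the labels do not say how reads shared between them were assigned. STZ+AOS 2 was the highest library for both genes. Pdk4, the kinase that shuts off glucose oxidation, rose from 3.26, 3.44 and 4.46 FPKM to 21.9, 15.1 and 26.6 FPKM (2.21 ± 0.21 SE, adjusted p = 0.00284), and Angptl4, an inhibitor of lipoprotein lipase, from 5.12, 7.08 and 12.4 FPKM to 47.0, 58.4 and 100.1 FPKM (2.92 ± 0.36 SE, adjusted p = 0.00434). The 2 that fell were Bdh1, which interconverts ketone bodies (-1.11, adjusted p = 0.0233), and the fatty acid uptake receptor Cd36 (-0.97, adjusted p = 0.0392). Both calls were lost without AOS 1, AOS 2 or AOS 3, and that of Cd36 also without STZ+AOS 2, with adjusted p up to 0.0773 and 0.118. Of 18 fatty acid oxidation enzymes 5 rose and 0 fell (median 0.17, under the 0.29 of all genes), and after median-of-ratios rescaling 3 rose and 3 fell.

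Among genes of lipid synthesis some fell and others rose, and 3 that fell are given first. Scd1, the desaturase that makes oleate, fell from 42.6, 42.0 and 37.1 FPKM to 13.9, 8.34 and 7.87 FPKM (-1.95 ± 0.20 SE, adjusted p = 0.00297), and Fasn, fatty acid synthase, from 12.9, 14.9 and 16.2 to 5.99, 7.63 and 6.32 FPKM (-1.03 ± 0.13 SE, adjusted p = 0.00434). Idi1, an isomerase of sterol synthesis, fell from 32.4, 30.8 and 41.9 to 9.06, 14.4 and 10.7 FPKM (-1.55 ± 0.19 SE, adjusted p = 0.00414). For the 3 genes the groups did not overlap and the calls held under each scaling and leave-out. The lists as a whole were mixed. Of 14 fatty acid synthesis genes 4 rose and 3 fell (median 0.24, near the 0.29 of all genes), against 3 and 4 after median-of-ratios rescaling. Of 17 sterol genes tested (18 listed) 2 rose and 5 fell (median -0.02), against 0 and 8 after that rescaling. Of all genes 36.6% were called higher and 6.30% lower as deposited, and 12.2% and 19.0% after that rescaling. Adipocyte markers, which could carry some of these transcripts, summed to 121 to 601 FPKM in AOS and to 268, 1493 and 748 FPKM in STZ+AOS, and their part in these results was not tested.

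The metallothioneins Mt1 and Mt2, small cysteine-rich proteins that bind zinc and copper, are induced by metals and by glucocorticoids and lie next to each other. They were among the 10 largest rises in absolute level. Because both moved together, the 250 bases before each gene's start are shown, from RefSeq (GRCm38.p6, plus strand), at chr8:94178839-94179088 for Mt1 and chr8:94172368-94172617 for Mt2. Capitals mark the metal response element core, the letters TGCGCNC or TGCACNC on either strand, where the metal-sensing factor MTF-1 is known to bind.
Mt1: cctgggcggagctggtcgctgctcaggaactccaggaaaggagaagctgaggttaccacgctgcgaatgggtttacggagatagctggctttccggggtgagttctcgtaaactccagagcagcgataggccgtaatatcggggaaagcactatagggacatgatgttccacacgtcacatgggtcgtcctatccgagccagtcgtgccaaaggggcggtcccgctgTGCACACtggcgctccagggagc
Mt2: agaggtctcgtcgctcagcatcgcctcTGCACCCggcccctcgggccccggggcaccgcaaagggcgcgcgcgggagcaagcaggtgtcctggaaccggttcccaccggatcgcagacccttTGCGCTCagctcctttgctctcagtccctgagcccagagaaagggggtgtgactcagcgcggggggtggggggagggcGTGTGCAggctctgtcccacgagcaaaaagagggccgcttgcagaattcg
This window held 1 match in Mt1 and 3 in Mt2, and matches outside it were not counted. The annotation used for the other coordinates starts Mt1 at 94179082 and Mt2 at 94172664, not where these windows end. The counts therefore depend on the start taken and do not give all the matches of either promoter. Of 32851 promoter windows of the same length 21.4% held at least 1 match, 5.17% at least 2 and 1.26% at least 3. A match is a run of letters and not a measured binding site.

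Mt1 measured 238, 244 and 183 FPKM in AOS and 1860.4, 1025 and 1665 FPKM in STZ+AOS (2.73 ± 0.24 SE, adjusted p = 0.00248). Mt2 measured 64.2, 70.7 and 56.4 FPKM against 1019, 364 and 634 FPKM (3.26 ± 0.34 SE, adjusted p = 0.00317). STZ+AOS 2 was the lowest of its group for both genes and still several times the highest AOS library; in that library alone the log2 differences were 2.22 and 2.50. Sgk1, the kinase through which corticosteroids raise sodium uptake, was very even, at 14.8, 14.0 and 14.0 FPKM in AOS against 75.5, 63.8 and 79.2 FPKM in STZ+AOS (2.27 ± 0.11 SE, adjusted p = 0.000741). Per1, a clock gene that glucocorticoids induce, measured 2.88, 3.43 and 3.47 against 12.4, 14.8 and 35.7 FPKM (2.22 ± 0.36 SE, adjusted p = 0.00666). Fkbp5, which binds the glucocorticoid receptor and is a common readout of it, was at 28.6, 23.3 and 93.0 FPKM in STZ+AOS against 22.4 to 23.8 FPKM in AOS and did not pass (0.76, adjusted p = 0.224). Of the 11 genes of glucocorticoid response and metallothioneins 7 rose and 0 fell (median 2.20), with 5 and 0 after either rescaling. In STZ+AOS 3, 9 of the 11 were highest. The sum of adrenal cortex markers was highest in STZ+AOS 3, and of the 14 such markers tested 9 were highest in STZ+AOS 1 and 5 in STZ+AOS 3. The part of adrenal tissue in the glucocorticoid and metallothionein values was not tested.

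Immediate early genes, the first to be transcribed after growth factors or stress reach a cell, were higher. Of the 14 on the list Egr2, Fosb and Fosl1 were not tested, since each reached 1 FPKM in at most 1 library. The 11 tested all rose (median 1.71), 9 rose after either rescaling and 8 were called in every leave-out fit. Fos measured 0.630, 0.590 and 0.350 FPKM in AOS and 3.84, 3.76 and 4.31 FPKM in STZ+AOS (1.71 ± 0.13 SE, adjusted p = 0.0019), and it is the 1 tested member that was under 1 FPKM in every AOS library. Jun measured 10.7, 8.33 and 7.78 against 28.4, 18.8 and 28.5 FPKM (1.39 ± 0.19 SE, adjusted p = 0.00529), and Atf3 0.820, 0.590 and 1.00 against 10.8, 3.87 and 4.19 FPKM (1.90 ± 0.34 SE, adjusted p = 0.00824). These genes also respond to the time between death and freezing, which the labels do not give.

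Targets of the antioxidant factor NRF2 and other detoxifying enzymes were higher in part. Of 13 listed and 12 tested, 9 rose and 0 fell (median 0.88), while after median-of-ratios rescaling 5 rose and 2 fell. Gsta2, a glutathione transferase, measured 33.2, 34.0 and 24.9 FPKM in AOS and 217, 201 and 161 FPKM in STZ+AOS (2.61 ± 0.16 SE, adjusted p = 0.0011). Ephx1, the microsomal epoxide hydrolase, which was not on the list and was named for its wide gap, measured 19.1, 15.7 and 13.7 against 143, 194 and 129.8 FPKM (3.18 ± 0.18 SE, adjusted p = 0.000933). Both were high in all 3 STZ+AOS libraries. Nqo1, the quinone reductase often used to read NRF2 activity, rose less, from 29.2, 23.9 and 21.7 FPKM to 44.8, 49.3 and 44.3 FPKM (0.87 ± 0.13 SE, adjusted p = 0.00552). Hmox1, which breaks down haem, went from 27.6, 30.4 and 33.6 FPKM to 140.4, 68.9 and 214 FPKM (2.03 ± 0.37 SE, adjusted p = 0.00898).

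Markers of podocytes, vessels and connective tissue were mostly higher. Of 11 podocyte genes 9 rose (median 1.04; 7 with median-of-ratios rescaling and 6 with quantile normalization), of 12 endothelial genes 12 rose (0.96; 10 and 8), and of 19 fibroblast and matrix genes tested (21 listed) 14 rose (1.06; 13 and 9), with 0 lower in each list under each scaling. Podxl, a sialoprotein of podocyte foot processes, measured 22.4, 18.2 and 18.8 FPKM against 41.7, 42.7 and 46.6 FPKM (1.11 ± 0.11 SE, adjusted p = 0.00284). Pecam1, the endothelial adhesion molecule CD31, measured 15.2, 13.5 and 11.8 against 32.8, 29.5 and 35.1 FPKM (1.21 ± 0.12 SE, adjusted p = 0.00287), and Dcn, the matrix proteoglycan decorin, 38.7, 34.3 and 51.0 against 116, 120.4 and 96.1 FPKM (1.42 ± 0.17 SE, adjusted p = 0.00384). All 3 kept their call after both rescalings, at 0.76, 0.87 and 1.06 after median-of-ratios rescaling. The fibrillar collagen Col1a1 was higher in STZ+AOS 1 and 2, at 10.5 and 10.5 FPKM, and within the AOS range of 2.20 to 3.44 FPKM in STZ+AOS 3, at 2.62 FPKM (adjusted p = 0.0942). Adrenal tissue has vessels and stroma of its own, whose part here was not tested; in STZ+AOS 2 alone 9 podocyte, 10 endothelial and 16 fibroblast genes were called higher.

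Further along the nephron the calls were fewer, in shares to be set beside the 36.6% of all genes called higher as deposited and the 12.2% after median-of-ratios rescaling. Of 10 principal cell genes of the collecting duct 5 rose (4 after that rescaling). Aqp2, the vasopressin-regulated water channel, measured 80.3, 65.8 and 43.2 FPKM in AOS and 139, 238 and 434 FPKM in STZ+AOS (1.98 ± 0.42 SE, adjusted p = 0.0128), and Scnn1a, the alpha subunit of the epithelial sodium channel, 37.6, 37.8 and 38.1 against 76.6, 66.2 and 82.03 FPKM (0.96 ± 0.10 SE, adjusted p = 0.00326). S100g, the calcium-binding protein calbindin-D9k of the distal tubule, measured 473, 737 and 686 against 1363, 1849.8 and 1714 FPKM (1.39 ± 0.20 SE, adjusted p = 0.00552). Of 11 intercalated cell genes 5 rose and 0 fell, against 1 and 1 after median-of-ratios rescaling. Of 10 genes tested of the thick ascending limb (11 listed) 2 rose and 1 fell, and of 12 distal and connecting tubule genes 4 rose and 1 fell, against 1 and 2 after that rescaling. Apart from the 4 principal cell genes after rescaling, these counts lie near or below those shares and give no result particular to these segments.

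Immune markers were uneven. Of 12 macrophage genes 6 rose and 0 fell, and after median-of-ratios rescaling 3 rose and 1 fell, beside 36.6% and 12.2% of all genes called higher, so nothing particular to macrophages is read from them. Cd14, a receptor for bacterial lipopolysaccharide that tubule cells also express, measured 6.81, 5.90 and 6.43 FPKM in AOS and 158, 23.8 and 30.2 FPKM in STZ+AOS (2.75 ± 0.65 SE, adjusted p = 0.0178; up to 0.0632 without AOS 1, AOS 2 or AOS 3). Of 10 tested genes of complement, fibrinogen and the acute phase (14 listed) 7 rose and 1 fell (median 1.26; 6 and 1 after median-of-ratios rescaling). C3, the central complement component, went from 7.29, 8.98 and 17.5 FPKM to 137, 81.6 and 64.9 FPKM (2.98 ± 0.37 SE, adjusted p = 0.00434), whereas Cfb, complement factor B, fell from 212, 236 and 217 to 132, 119 and 117 FPKM (-0.85 ± 0.10 SE, adjusted p = 0.00374). The calls of C3 and Cfb held under each scaling and leave-out. None of the 4 tested T and NK cell genes, 2 B and plasma cell genes and 2 neutrophil genes passed in limma.

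**Figure D3:**
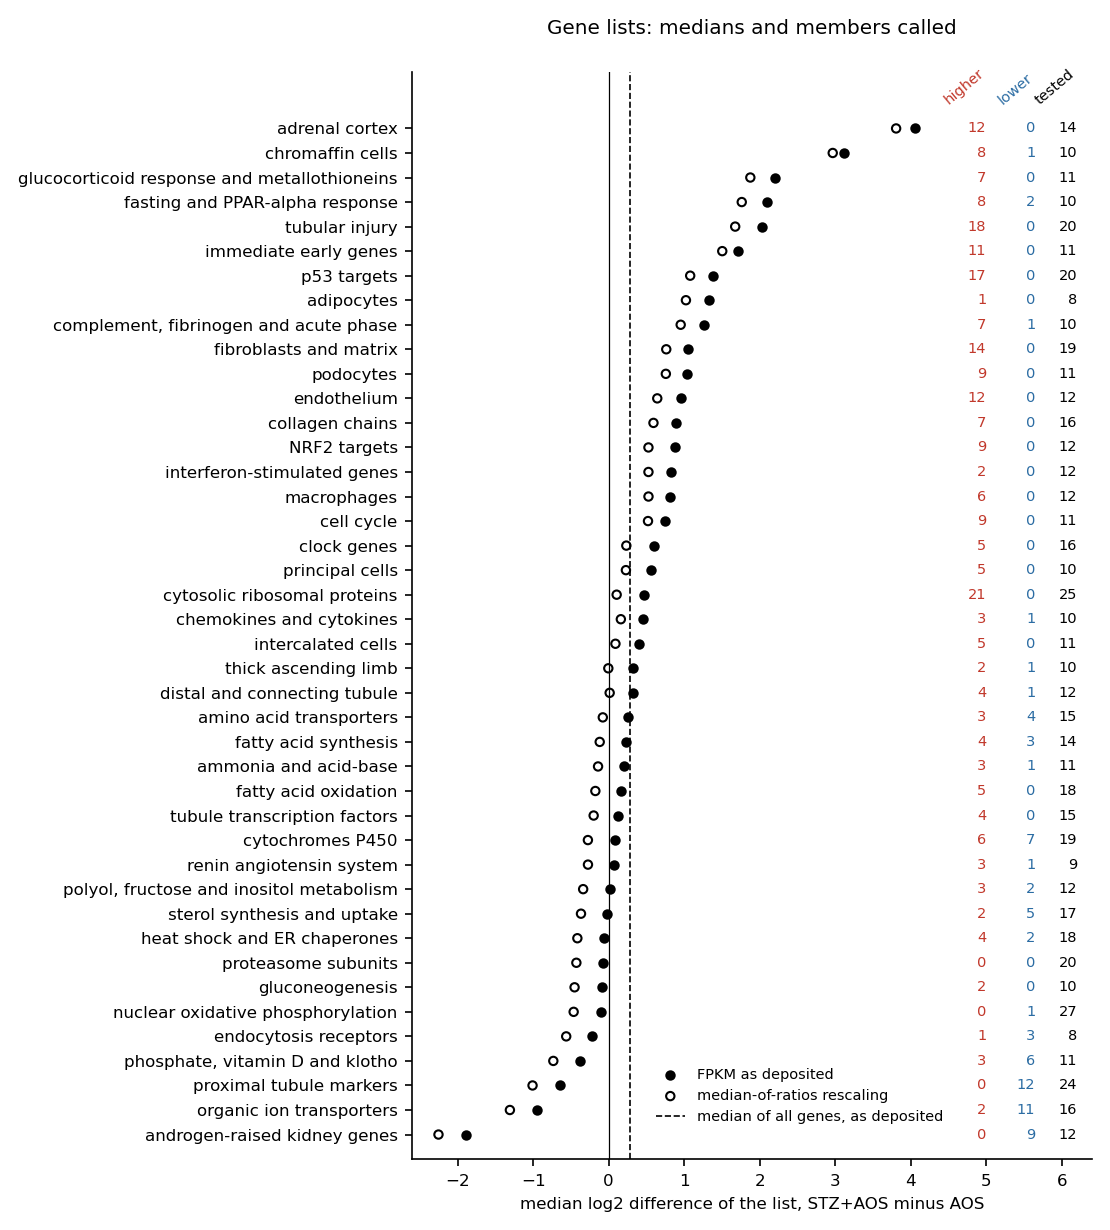
Median log2 difference of each gene list with at least 8 tested members (horizontal axis), as deposited (filled circles) and after median-of-ratios rescaling (open circles), with the number of members called higher, called lower and tested at the right; the dashed line is the median of all genes, 0.29. Adrenal cortex genes stand at the top with a median of 4.06 and androgen-raised kidney genes at the bottom with -1.89.

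For large protein complexes the number of calls depended on the scale. Cytosolic ribosomal proteins gave 21 rises and 0 falls of 25 tested (median 0.47) as deposited and 14 and 0 after quantile normalization, but 0 calls after median-of-ratios rescaling (medians 0.42 and 0.11), and STZ+AOS 1 was the highest library for all 25. Nuclear subunits of oxidative phosphorylation gave 0 rises and 1 fall of 27 as deposited (median -0.10), 1 rise and 0 falls after quantile normalization (-0.0720) and 0 and 19 after median-of-ratios rescaling (-0.46). Proteasome subunits gave 0 calls of 20 as deposited and after quantile normalization (medians -0.0715 and -0.0624) and 15 falls after median-of-ratios rescaling (-0.43). The medians kept their sign under the 3 scalings.

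The 5 largest rises were of genes of the adrenal cortex. Of 14 adrenal cortex genes tested (16 listed), 7 of them under 1 FPKM in every AOS library, 12 rose and 0 fell (median 4.06). Cyp11b1, the 11-beta-hydroxylase that completes corticosterone, measured 0.15, 0.0600 and 0.0600 FPKM in AOS and 316, 14.3 and 276 FPKM in STZ+AOS (6.66 ± 1.10 SE, adjusted p = 0.00707). STZ+AOS 2 lay far under the other two libraries of its group and still above every AOS library. Akr1b7, an aldo-keto reductase abundant in the adrenal cortex, measured 2.39, 1.38 and 0.930 FPKM against 219.7, 18.04 and 1379 FPKM (6.17 ± 1.39 SE, adjusted p = 0.0154; up to 0.0555 without AOS 2 or AOS 3). Markers of chromaffin cells, the catecholamine-making cells of the adrenal medulla, summed to 434, 70.3 and 297 FPKM in STZ+AOS against 64.1 to 95.5 FPKM in AOS, the sum in STZ+AOS 2 lying within the AOS range. Of 15 listed 10 were tested, 5 of them under 1 FPKM in every AOS library, and 8 rose and 1, Slc18a1, fell. In STZ+AOS 2 alone the median log2 difference of the tested members was 1.22. The 5 members under 1 FPKM in AOS were kept only because all 3 STZ+AOS libraries, STZ+AOS 2 included, reached 1 FPKM. That median therefore carries this choice. Chga, chromogranin A, measured 0, 0.0400 and 0.0800 FPKM in AOS and 63.5, 2.53 and 64.8 FPKM in STZ+AOS (adjusted p = 0.0177; up to 0.0608 without AOS 1, AOS 2 or AOS 3). Slc18a1, a vesicular amine carrier, measured 33.3, 51.6 and 68.5 against 15.4, 14.2 and 25.95 FPKM (-1.41, adjusted p = 0.0142; 0.0541 without AOS 2) and made up most of the AOS sum. Taking Cyp11b1 as a covariate over all 18 libraries left 0 genes called of 12682, with 561 at an unadjusted p under 0.05, and 24 of the 93 other genes named here changed sign in it. Of these, 16 were called as deposited, Kap (0.22) among them, and 8 were not. Among the 6 libraries compared, STZ treatment and adrenal content cannot be told apart by such a term, since all 3 STZ+AOS libraries exceeded all 3 AOS libraries in Cyp11b1.

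The STZ effect with AOS was set against the STZ effect without AOS by the difference of the 2 differences over the 12 libraries of the control, AOS, STZ and STZ+AOS groups. Of 12542 genes 0 passed limma's test (0%), with 0.204 as the lowest adjusted p; 2859 genes had an unadjusted p under 0.05. The control and STZ groups were spread widely, since control 3 held 2.48% of its summed FPKM in Kap against 21.2 and 20.9% in controls 1 and 2, and STZ 1 held 19.9% against 9.61 and 2.26% in STZ 2 and 3. Control 3, labelled as untreated, lay on the side of STZ+AOS for the leading genes, with 82.6 FPKM of Cdkn1a, 227 of Cyp4a14, 557 of Mt2 and 118 of Cyp11b1. STZ 1 lay on the side of AOS, with 6.52 FPKM of Cdkn1a, 1.26 of Cyp4a14 and 81.2 of Mt2. For these genes the pattern that separates STZ+AOS from AOS was therefore present in a library labelled without STZ and absent from one labelled with it. For Cyp4a14 the difference of effects was 5.31 ± 2.44 SE (adjusted p = 0.222), for Cdkn1a 3.72 ± 1.31 SE (0.204), for Slc22a6 -1.22 ± 0.36 SE (0.204) and for Scd1 0.07 ± 0.62 SE (0.943). No gene was thus shown to respond to STZ differently in the presence of AOS. Of the fits that left out 1 library, the one without STZ+AOS 2 called 12 genes, all higher, the one without STZ+AOS 3 called 1, and the others 0. With both control 3 and STZ 1 left out 0 genes passed and 1090 had an unadjusted p under 0.05. In the 6 libraries of the transfer groups, which also received STZ, Cdkn1a lay between 23.4 and 40.3 FPKM, Cyp4a14 between 7.18 and 43.0 FPKM and Havcr1 between 2.32 and 3.27 FPKM, below all 3 STZ+AOS libraries and above all 3 AOS libraries for each gene.

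**Figure D4:**
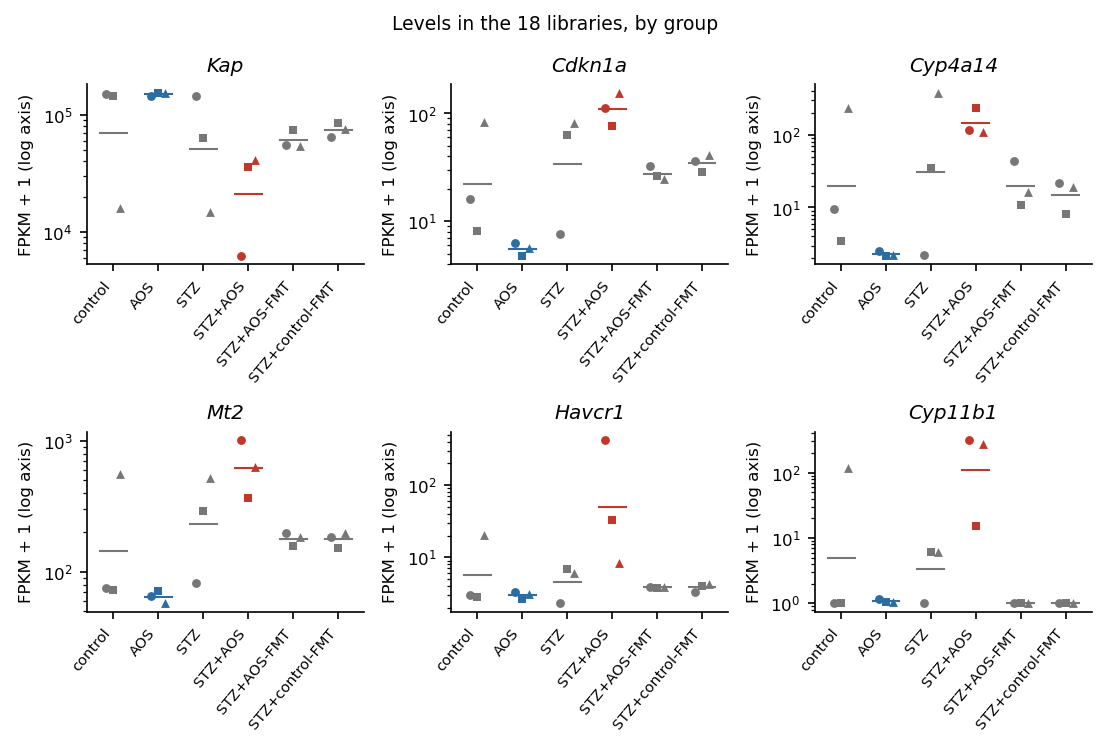
FPKM plus 1 on a log axis in all 18 libraries by group for Kap, Cdkn1a, Cyp4a14, Mt2, Havcr1 and Cyp11b1; circle, square and triangle are libraries 1, 2 and 3 and the bar is the mean of the log values. The AOS libraries lie close together for all 6 genes, whereas the control and STZ groups each hold libraries at both ends of the range for Kap.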

How the data were processed

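Kidney tissue was frozen and RNA was taken with Trizol and a column kit for the 18 standard Illumina libraries, per the labels' protocols. Bowtie 0.12.2 and the build mm10 are named in the submitters' processing notes; no source used here gives the counting tool or annotation. The deposited table holds 1 value per gene and library. The authors' values were taken to be FPKM, since multiplied by transcript length they summed to nearly the same total in each library (coefficient of variation 0.939%, against 5.47% for plain sums; 18991 of 19545 entries matched to GENCODE M21), and the depth is unknown. One read was worth the same in the 6 libraries to within a ratio of 1.09, from 273 to 311 low genes per library. Genes at 1 FPKM or more in at least 3 of the 6 libraries were kept and log2(FPKM + 1) was tested with limma 3.58.1 (R 4.3.3, trend and robust options, Benjamini-Hochberg, threshold 0.05), and the procedure was tested on simulated data. A called gene is one under that threshold. Genes outside the lists were named where they passed the test without overlap, had a group mean of at least 5 FPKM and were among the 12 largest or 12 widest-gap rises or falls, or among the 10 largest changes in FPKM; this gave 48 genes, 43 of them called. The members and gene lists were chosen with earlier results of these data known, so no list is independent evidence. Lists are described by counts and medians, with no test of the list. Symbols with more than 1 entry were left out of lists. Replicate numbers did not pair the libraries.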

Additional observations from a re-analysis of the deposited data

How the results depend on the processing

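Of the 5216 genes called, 4450 higher and 766 lower, quantile normalization left 2514 (1028 higher, 1486 lower), median-of-ratios rescaling 1476 higher and 2301 lower, and a mean of at least 5 FPKM 3462 (2788 higher), the last with fewer genes tested. The share of calls that were higher was 85.3% as deposited, 39.1% once rescaled by median ratios and 40.9% on quantile-normalized values. Leaving out 1 library at a time gave between 2141 and 6113 calls, between 1802 and 5320 higher and between 339 and 793 lower, with fewer libraries in each fit. Without AOS 1, 2 or 3 the counts were 2724, 2141 and 2213. With STZ+AOS 1 and STZ+AOS 3 both left out 4765 genes were called. With Cyp11b1 as a covariate over 18 libraries 0 were called, and the log2 difference changed sign for Abcc2 (-0.17), Abcc4 (-0.0382), Cd36 (0.50), Fasn (0.49), Gsta2 (-0.91), Gusb (0.0948), Kap (0.22), Nqo1 (-0.13), Odc1 (0.29), Prlr (-1.001), S100g (-0.0219), Scnn1a (-0.0277), Slc7a12 (-0.23), Slc7a13 (0.53), Slco1a1 (0.17) and Ugt1a2 (-1.47), all called as deposited, and for Acsm3 (0.57), Cyp2e1 (0.28), Cyp7b1 (0.61), Ei24 (-0.0980), Hspa5 (0.0752), Irf7 (-1.12), Pck1 (-0.29) and Perp (0.0617), none of them called; 65 further named genes lost their call in the same direction, and the cause was not tested. Other sign changes were of genes not called as deposited: Ei24 after quantile normalization (-0.00695) and median-of-ratios rescaling (-0.29), Hspa5 after quantile normalization (0.0316), and Perp with STZ+AOS 1 and STZ+AOS 3 both left out (0.0723). With 1 library left out Ei24 ranged from -0.0521 to 0.27, Hspa5 from -0.23 to 0.0915 and Pck1 from -0.46 to 1.40. Replicate numbers did not pair the libraries: the deviations of same-numbered libraries correlated at 0.05, -0.03 and -0.05, and a fit with the replicate number as a block called 4198 genes, 3617 higher and 581 lower. For the difference of the STZ effects 0 genes were called with other normalizations, filters, pseudocounts or sets of libraries, and 0 with the block; leaving out 1 of the 12 libraries, chosen after seeing the data, gave between 0 and 12 calls, between 0 and 12 of them higher and 0 lower. Of the 94 genes named, 82 called, quantile normalization and the fit of all 18 libraries each ended the call of 8, leaving out AOS 1, 2 or 3 of 11, 14 and 13, leaving out STZ+AOS 1, 2 or 3 of 2, 3 and 1, STZ+AOS 2 alone of 3, median-of-ratios rescaling, no filter and the block of 2 each, and a pseudocount of 5, array weights and the fit without the control and STZ groups of 1 each. The total without Kap, a pseudocount of 0.1, a mean of at least 5 FPKM (88 of the 94 tested) and limma without trend and robust options ended 0. The other settings moved no count of calls by more than 1.5 times.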

Other observations

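Isyna1 and Miox, enzymes of inositol, an osmolyte and signalling precursor, moved in opposite directions. Isyna1, which makes inositol from glucose 6-phosphate, rose from 21.8, 17.8 and 16.1 FPKM in AOS to 55.6, 39.3 and 53.2 FPKM in STZ+AOS (1.36 log2, limma adjusted p = 0.00434), while Miox, which breaks it down and is given above, fell. Nfat5, the transcription factor of the osmotic response, rose from 6.72, 6.58 and 5.49 to 13.35, 11.1 and 11.3 FPKM (0.83, adjusted p = 0.00552). Of the 12 genes of polyol, fructose and inositol metabolism 3 rose and 2 fell, and after median-of-ratios rescaling 2 rose and 4 fell. Of all genes 36.6% were called higher and 6.30% lower, and 12.2% and 19.0% after that rescaling. Nothing particular to the list is read from its counts.

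Chaperones and stress regulators of the endoplasmic reticulum parted as well. Ddit3, the stress-induced factor CHOP, rose from 9.37, 9.70 and 10.6 FPKM to 26.1, 22.5 and 27.3 FPKM (1.27, adjusted p = 0.00246), with no overlap between the groups. Hspa5, the chaperone BiP, measured 184, 190.1 and 231 FPKM against 254, 180.0 and 163 FPKM (-0.04, adjusted p = 0.873). Of the 18 genes on that list 4 rose and 2 fell, against 3 and 7 after median-of-ratios rescaling. Of 19 cell cycle genes listed 11 were tested, 3 of them under 1 FPKM in every AOS library. They gave 9 rises and 0 falls, but 3 and 1 once rescaled by median ratios and 1 and 1 on quantile-normalized values. Only 1 of the 9 was called in every leave-out fit.

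AOS 3 differed from the other AOS libraries in interferon-stimulated genes. Irf7, a regulator of interferon genes, measured 5.08, 5.90 and 96.6 FPKM in AOS 1, 2 and 3 and 37.9, 27.5 and 16.2 FPKM in STZ+AOS (0.74, adjusted p = 0.582), and 2 of 12 tested genes of that list rose and 0 fell.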
